A study of Mus musculus with 12 samples.

Results

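The 47 cell cycle and mitosis genes described here were taken by symbol from a table of 55487 genes measured in mouse bone-marrow-derived macrophages. All 47 symbols were found once and all 47 had enough counts to be tested. They comprise 5 G1 cyclins and their kinases, 3 CDK inhibitors, 5 genes of the E2F and cyclin E step, 8 of replication licensing, 4 of DNA synthesis, 6 of mitotic entry, 7 of the kinetochore and spindle checkpoint, 2 of the anaphase-promoting complex, 5 of the spindle and cytokinesis, and the proliferation markers Mki67 and Top2a.

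A cell that commits to division first raises D-type cyclins, which activate CDK4 and CDK6 and release E2F factors from retinoblastoma proteins. E2F factors then raise cyclin E and the genes that license and copy DNA, and a later programme carried by the MuvB, B-MYB and FOXM1 proteins raises the mitotic genes. Macrophages grown in M-CSF keep cycling in culture, and lipopolysaccharide (LPS), the bacterial outer membrane component sensed by TLR4, is known to stop their proliferation.

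Poly-A RNA was sequenced from 4 groups of 3 libraries, which are Fes-/- macrophages under LPS, Fes-/- macrophages under PBS, Fes+/+ (wild-type) macrophages under LPS and wild-type macrophages under PBS. LPS was given at 1 µg/mL for 4 hours, and the PBS cells are also described as untreated. All groups were grown from marrow in 20 ng/mL M-CSF, and the series design names 3 mice per genotype. FES is a cytoplasmic tyrosine kinase of myeloid cells. No source used here gives the nature of the Fes-/- allele or the age of the mice. All 12 libraries carry 1 batch date.

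The libraries held 61016254 to 101027166 counts. Fes had 35.1, 33.5 and 32.9 CPM (TMM-scaled counts per 1e6 counts) in Fes-/- libraries under LPS, against 152, 163 and 171 CPM in wild-type libraries under LPS. Under PBS it had 68.9, 66.4 and 70.5 CPM in Fes-/- libraries, against 169, 189 and 179 CPM in wild-type libraries. The targeted gene was therefore lower in every Fes-/- library than in any wild-type library of the same treatment, and some Fes reads remained. All 8 macrophage markers examined, among them Csf1r, Adgre1, Cd68 and Lyz2, were above 1 TPM (the deposited length-scaled transcript level) in every group. Their summed level in Fes-/- libraries was 17180 to 21234 TPM under LPS and 28877 to 37514 TPM under PBS. In wild-type libraries it was 18386 to 22459 TPM under LPS and 32398 to 39416 TPM under PBS. Lyz2 was the largest part of every sum. Csf1r, Cd68, Itgam, Mertk and Lyz2 were lower under LPS without overlap in both genotypes, and Adgre1 in wild type only. Fcgr1 and Cd14 were higher in every LPS library than in any PBS library of their genotype. Fcgr1 had 876.5 to 952 TPM under LPS and 200 to 309 TPM under PBS in Fes-/- libraries. In wild-type libraries it had 947 to 1070 TPM under LPS and 239 to 310 TPM under PBS.

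LPS lowered most of the cell cycle genes in both genotypes. In Fes-/- macrophages 38 of 47 fell, 4 rose and 5 did not pass the test, where 38.9% of all 15801 genes tested fell and 34.3% rose. In wild-type macrophages 37 fell, 4 rose and 6 did not pass, where 38.8% of all genes tested fell and 34.6% rose. The median log2 fold of the 47 genes was -0.97 in Fes-/- cells and -1.10 in wild-type cells, against -0.08 and -0.07 over all genes tested. The genes that rose in both genotypes were Ccnd2, Cdk6, Cdkn1a and, with TMM scaling but not with library totals, Cenpe. In both genotypes 37 genes fell. Ccnd1, Mcm6, Pcna, Tyms and Ube2c passed in neither, and Tpx2 passed in Fes-/- cells and not in wild-type cells.

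Calls rest on edgeR's quasi-likelihood test with Benjamini-Hochberg adjustment over all 15801 genes, at an adjusted p under 0.05, and folds are log2 LPS over PBS with their standard error. The 2 treatments differ in RNA composition, since the TMM factors were 0.728 to 0.731 in Fes-/- libraries under LPS and 1.38 to 1.40 under PBS, and 0.707 to 0.737 in wild-type libraries under LPS and 1.35 to 1.38 under PBS. Scaled by the library total alone, the median fold of all genes was lower by 0.93 in Fes-/- cells and by 0.91 in wild-type cells. Then 42 of the 47 genes fell and 3 rose in each genotype, where 70% (Fes-/-) and 68.5% (wild type) of all genes fell and 15.9% and 16.3% rose. Under that scaling, and in TPM, the fold of Cenpe, Mcm6 and Pcna turned negative in both genotypes and that of Tyms in Fes-/- cells, so the direction of these 4 genes depends on the scaling. In bulk RNA, fewer cells in a cycle phase and less RNA per cell cannot be told apart.

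The whole set took 0.546% to 0.589% of the counts in Fes-/- libraries under LPS, against 1.01% to 1.13% under PBS. In wild-type libraries it took 0.487% to 0.553% under LPS, against 0.871% to 1.04% under PBS. The share was thus lower in every LPS library than in any PBS library, although the LPS share includes the gain of Cdkn1a and Ccnd2. With library totals the median log2 fold of all genes tested was -1.01 in Fes-/- and -0.98 in wild-type cells. The lower share therefore does not by itself show that the set fell relative to other genes. Under the same scaling the median log2 fold of the genes of the set was -1.90 in Fes-/- and -2.01 in wild-type cells. No library overlapped between treatments for 38 genes that were lower and 6 that were higher under LPS in Fes-/- cells, where 41% and 36.3% of all genes did the same. In wild-type cells 33 genes were lower and 4 higher without overlap, where 39.8% and 35.4% of all genes did the same.

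**Figure D1:**
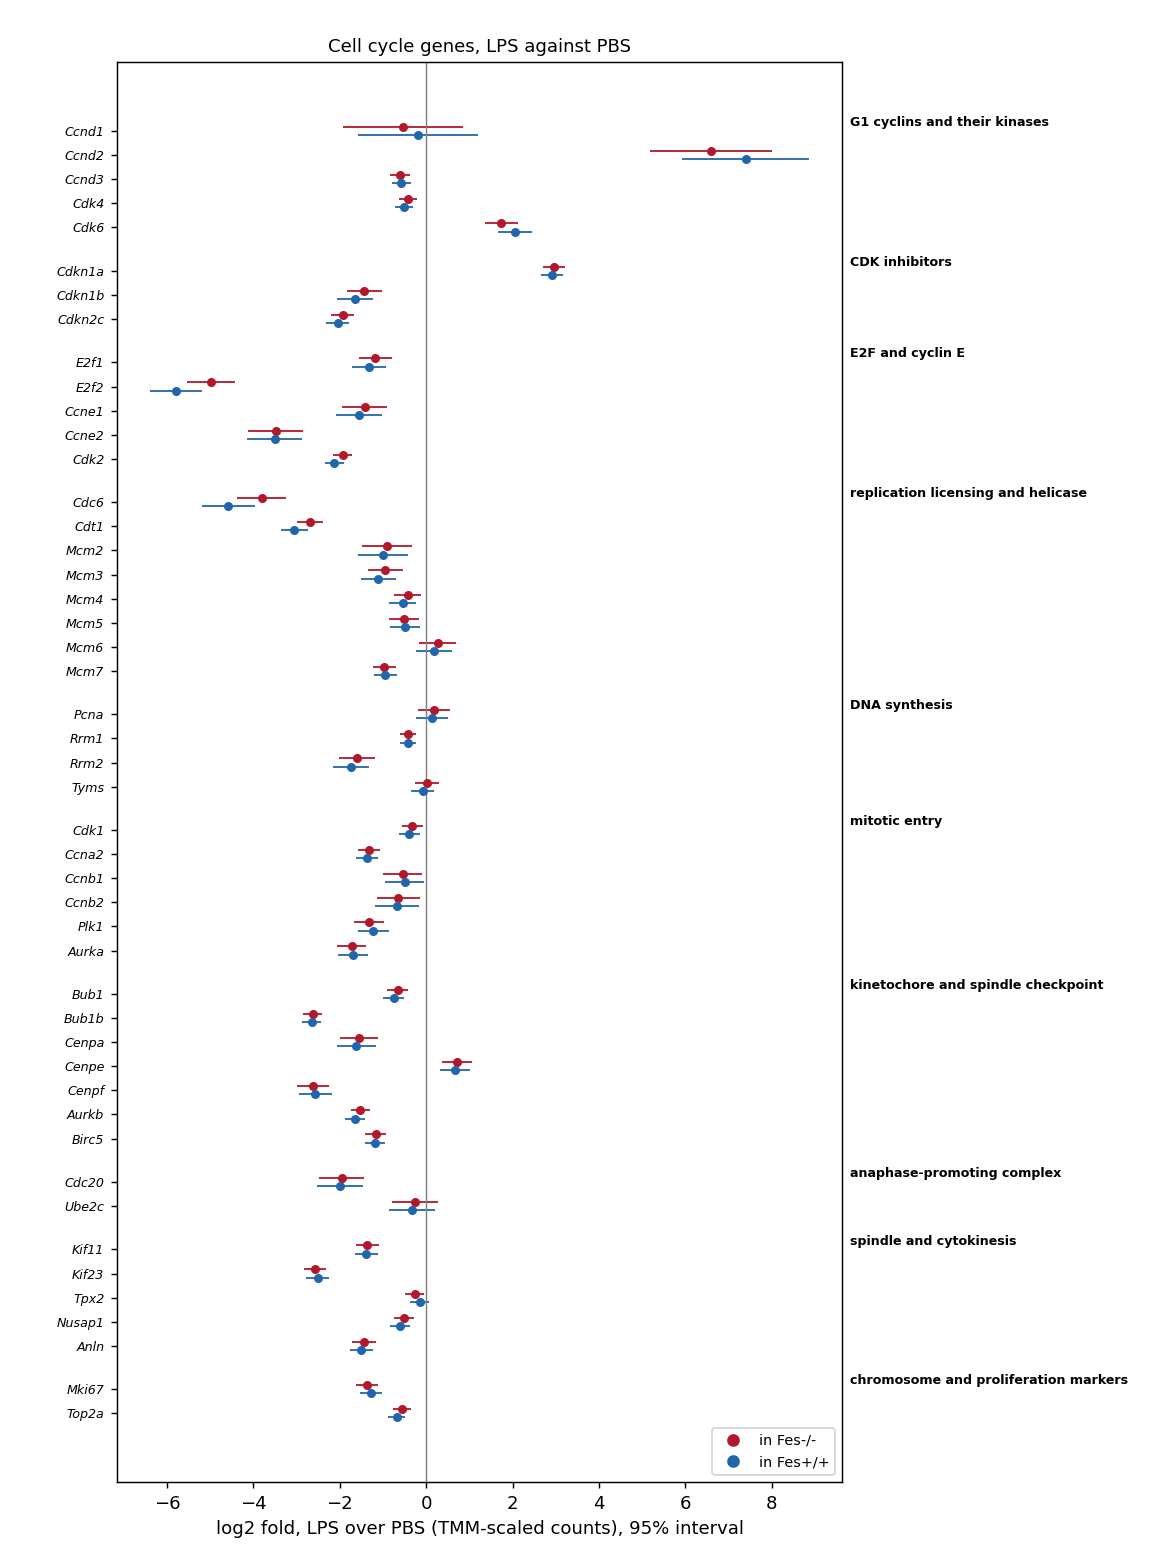
Log2 fold of LPS over PBS for the 47 genes, in Fes-/- (red) and wild-type (Fes+/+, blue) macrophages. Points are fitted folds of TMM-scaled counts and bars their 95% intervals, with genes grouped by role. Most points lie left of 0 in both genotypes, and Ccnd2, Cdk6, Cdkn1a and Cenpe lie to the right, of which Cenpe moves left of 0 with library totals.

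The promoters of 5 of these genes are shown because they stand for the programmes that the results below compare. Bub1b and Cenpf belong to the mitotic genes that fell most, Mcm6 to the replication genes that did not pass the test, and Mki67 and Top2a are the markers. Each line gives the 150 bases upstream of the RefSeq start on GRCm38.p6, 5′ to 3′ on the gene's strand, and capitals mark matches to 3 motifs on either strand. These are the CHR element (TTTGAA or else TTCGAA), which MuvB complexes bind, the CCAAT box, which NF-Y binds, and an E2F element (TTGGCGC or TTGCCGC, or else TTCGCGC or TTCCCGC).
Bub1b (chr2:118598061-118598210, plus strand): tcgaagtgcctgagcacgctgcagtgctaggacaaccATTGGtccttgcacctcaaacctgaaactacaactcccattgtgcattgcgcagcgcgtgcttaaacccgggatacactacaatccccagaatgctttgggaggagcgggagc
Cenpf (chr1:189688087-189688236, minus strand): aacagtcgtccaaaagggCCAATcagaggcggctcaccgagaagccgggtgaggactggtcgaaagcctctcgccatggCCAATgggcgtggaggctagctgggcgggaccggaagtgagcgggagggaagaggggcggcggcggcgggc
Mcm6 (chr1:128359706-128359855, minus strand): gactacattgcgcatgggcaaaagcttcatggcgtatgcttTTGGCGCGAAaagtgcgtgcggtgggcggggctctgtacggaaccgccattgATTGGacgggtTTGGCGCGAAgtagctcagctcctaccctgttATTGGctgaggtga
Mki67 (chr7:135716380-135716529, minus strand): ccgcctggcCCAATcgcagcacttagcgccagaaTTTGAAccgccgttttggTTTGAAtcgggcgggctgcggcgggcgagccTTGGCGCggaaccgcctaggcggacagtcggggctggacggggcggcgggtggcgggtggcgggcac
Top2a (chr11:99024190-99024339, minus strand): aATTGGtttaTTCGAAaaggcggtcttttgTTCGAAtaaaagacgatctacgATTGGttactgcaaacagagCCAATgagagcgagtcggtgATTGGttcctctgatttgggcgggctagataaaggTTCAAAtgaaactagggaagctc

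Top2a held 3 CHR and 4 CCAAT matches in this stretch and no E2F match. Mki67 held 2 CHR matches, 1 CCAAT box and 1 E2F match. Mcm6 held 4 E2F matches, which overlap in 2 pairs with 1 match on each strand, and 2 CCAAT boxes. Bub1b held 1 and Cenpf 2 CCAAT boxes, with no CHR match in these 150 bases. The full windows below extend beyond this stretch, and the CHR matches of the kinetochore genes did not lie within it. A match is a string of letters and not a mapped binding site.

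In the full RefSeq windows of 300 bases, 40 of the 47 genes were matched by symbol, with 45 windows. Aurkb, Ccna2, Ccnd1, Ccnd2, Ccne2, Mcm4 and Tpx2 had no window. A CHR match stood in 18 of 45 windows (40.0%), against 19.2% of all 32851 windows. A CCAAT box stood in 31 of 45 (68.9%), against 37.4% of all windows. An E2F match stood in 15 of 45 (33.3%), against 9.57% of all windows, and in 2 of these windows an E2F and a CCAAT match share bases. By role, E2F letters stood in 7 of 8 windows of the licensing genes and in 0 of 6 windows of the kinetochore genes. The CHR letters stood in 4 of 6 windows of the kinetochore genes, 4 of 5 of the mitotic entry genes and 2 of 8 of the licensing genes.

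Among the G1 cyclins and their kinases, LPS raised Ccnd2 and Cdk6 and lowered Ccnd3 and Cdk4 in both genotypes. Ccnd2 encodes cyclin D2, an activator of CDK4 and CDK6. It had 1116, 1083 and 1030.0 CPM in Fes-/- libraries under LPS, against 10.3, 18.1 and 5.03 CPM under PBS. It had 978, 1159 and 1213 CPM in wild-type libraries under LPS, against 10.2, 2.38 and 7.21 CPM under PBS. Every LPS library was above every PBS library by a wide margin, 96.5-fold between the means in Fes-/- and 169-fold in wild-type cells. The log2 fold was 6.59 ± 0.63 (adjusted p = 6.49e-06) in Fes-/- cells and 7.39 ± 0.65 (adjusted p = 3.53e-06) in wild-type cells. Cdk6, the kinase partner of the D-type cyclins, had 378, 370.4 and 404 CPM in Fes-/- libraries under LPS, against 110.3, 147 and 87.7 CPM under PBS. Wild-type libraries held 343, 401 and 377 CPM of Cdk6 under LPS, against 107, 70.0 and 92.3 CPM under PBS. No library overlapped, and the log2 fold was 1.74 ± 0.18 (adjusted p = 1.22e-06) in Fes-/- cells and 2.06 ± 0.18 (adjusted p = 2.45e-07) in wild-type cells.

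The other members of this group were lower or did not pass. Ccnd3, encoding cyclin D3, fell, with a log2 fold of -0.61 in Fes-/- and -0.58 in wild-type cells. Cdk4 fell likewise (-0.42 in Fes-/- and -0.51 in wild-type cells). Ccnd1, encoding cyclin D1 and named here after its values were seen, did not pass and differed widely between libraries of 1 group. It had 58.7, 84.2 and 68.3 CPM in Fes-/- libraries under LPS, against 80.3, 162 and 63.7 CPM under PBS. It had 89.4, 48.4 and 59.7 CPM in wild-type libraries under LPS, against 147, 21.7 and 57.2 CPM under PBS. The wild-type PBS libraries span 6.78-fold, the widest ratio of highest to lowest among the 47 genes in any group, and the log2 fold was -0.54 ± 0.61 in Fes-/- and -0.19 ± 0.61 in wild-type cells (adjusted p = 0.454 and 0.789). Without wild-type PBS library 1 the wild-type fold turned to 0.74 (adjusted p = 0.241). Ccnd1 exons overlap LTO1 on the opposite strand over 23.4% of their length and Cdk4 exons overlap Tspan31 over 19.7%, and no source used here says whether strand was used in counting.

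Measured per length in TPM, the make-up of the D-type cyclin mRNA differed between LPS and PBS. Ccnd2 made up 83.5% to 87.3% of the D-type cyclin TPM in Fes-/- libraries under LPS, against 2.60% to 4.41% under PBS. In wild-type libraries it made up 81.5% to 89.5% under LPS, against 2.39% to 3.77% under PBS. Under PBS, Ccnd1 was the main D-type cyclin in 5 of 6 libraries, and wild-type PBS library 2 held more Ccnd3 (54.3%) than Ccnd1 (43.4%). The summed TPM of the 3 cyclins was 316 to 334 in Fes-/- libraries under LPS and 94.4 to 214 under PBS. It was 308 to 356 in wild-type libraries under LPS and 49.4 to 183 under PBS. Cdk6 made up 48.7% to 51.6% of the Cdk4 and Cdk6 TPM in Fes-/- libraries under LPS and 13.8% to 22.2% under PBS. The wild-type share of Cdk6 was 45.8% to 56.3% under LPS and 13.3% to 16.5% under PBS. Shares within a library do not depend on the scaling between libraries.

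**Figure D2:**
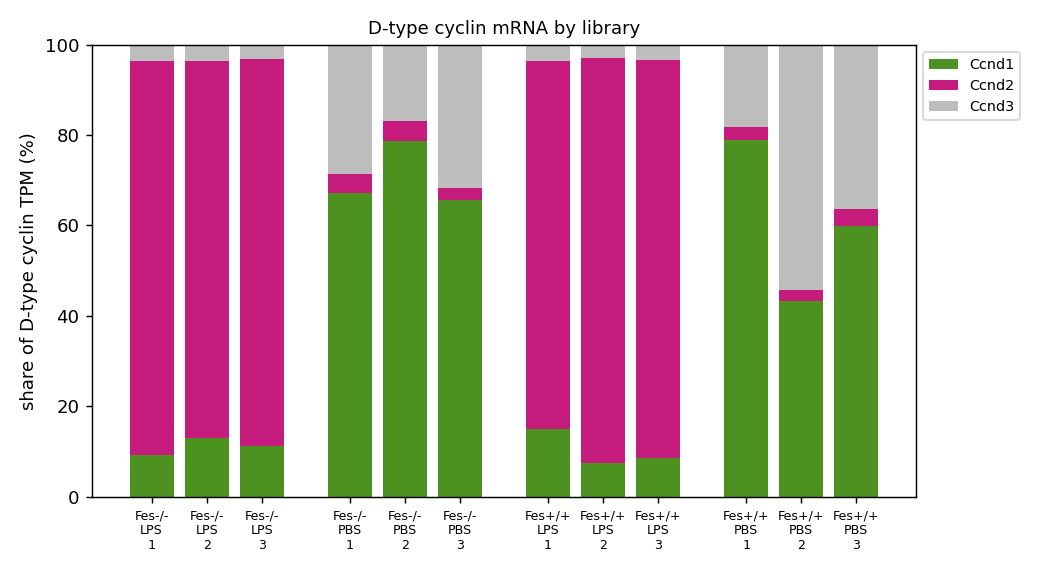
Share of each D-type cyclin in the summed Ccnd1, Ccnd2 and Ccnd3 TPM (%, stacked to 100) in the 12 libraries, with the library number under each bar. Ccnd2 fills 81.5% to 89.5% of every LPS bar and 2.39% to 4.41% of every PBS bar.

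The 3 CDK inhibitors did not move together. Cdkn1a, which encodes p21, a brake on CDK2 complexes that p53 and other factors induce, had 2058, 2308 and 2128 CPM in Fes-/- libraries under LPS, against 287, 299 and 248 CPM under PBS. It had 2065, 1824 and 1992 CPM in wild-type libraries under LPS, against 239, 235 and 308 CPM under PBS. The LPS libraries lay far above the PBS libraries, with means 7.79-fold apart in Fes-/- and 7.51-fold apart in wild-type cells and a log2 fold of 2.96 ± 0.12 (adjusted p = 1.27e-11) in Fes-/- and 2.91 ± 0.12 (adjusted p = 1.51e-11) in wild-type cells. Cdkn2c encodes p18, an inhibitor of CDK4 and CDK6, and had 37.9, 39.2 and 34.2 CPM in Fes-/- libraries under LPS, against 154, 129 and 144 CPM under PBS. In wild-type cells it had 30.4, 29.3 and 39.1 CPM under LPS, against 123, 129 and 157 CPM under PBS. Every LPS library was lower, and the log2 fold was -1.93 ± 0.12 (adjusted p = 1.48e-09) in Fes-/- and -2.05 ± 0.12 (adjusted p = 8.34e-10) in wild-type cells. Cdkn1b, encoding p27, fell, with a log2 fold of -1.43 in Fes-/- and -1.65 in wild-type cells. Cdkn1a held 96.4% to 97.0% of the TPM of the 3 inhibitors in Fes-/- libraries under LPS and 49.2% to 57.1% under PBS. In wild-type libraries it held 96.2% to 97.4% under LPS and 48.2% to 53.0% under PBS.

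All 5 genes of the E2F and cyclin E step fell in both genotypes. E2f2, an activating E2F factor, showed the largest fall of the 47 genes. It had 1.62, 2.53 and 1.27 CPM in Fes-/- libraries under LPS, against 59.0, 57.4 and 55.4 CPM under PBS. It had 1.07, 0.492 and 1.43 CPM in wild-type libraries under LPS, against 60.1, 50.5 and 55.7 CPM under PBS. The LPS level was 3.15% of the PBS mean in Fes-/- cells and 1.80% in wild-type cells, from 60 to 143 counts per LPS library in Fes-/- and 23 to 69 in wild-type cells. Its log2 fold was -4.98 ± 0.25 (adjusted p = 1.96e-09) in Fes-/- and -5.79 ± 0.27 (adjusted p = 1.04e-09) in wild-type cells. Cdk2, the kinase that cyclin E and cyclin A activate, had 17.8, 16.5 and 16.0 CPM in Fes-/- libraries under LPS, against 64.5, 58.1 and 69.6 CPM under PBS. Wild-type cells held 16.1, 12.7 and 14.9 CPM of Cdk2 under LPS, against 70.7, 57.7 and 62.4 CPM under PBS. The groups did not overlap, with a log2 fold of -1.93 ± 0.10 (adjusted p = 2.72e-10) in Fes-/- and -2.13 ± 0.11 (adjusted p = 1.09e-10) in wild-type cells.

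E2f1, the other activating E2F factor of the set, fell less than E2f2, with a log2 fold of -1.17 in Fes-/- and -1.33 in wild-type cells. Of the summed E2f1 and E2f2 TPM, E2f2 therefore made up 3.47% to 8.21% in Fes-/- libraries under LPS and 40.7% to 46.8% under PBS. It made up 2.05% to 5.20% in wild-type libraries under LPS and 40.0% to 45.8% under PBS. The cyclin E genes differed in the same manner. Ccne1 had a log2 fold of -1.42 in Fes-/- and -1.55 in wild-type cells, and Ccne2 one of -3.48 in Fes-/- and -3.50 in wild-type cells. The LPS libraries held 126 to 164 counts of Ccne2 in Fes-/- and 91 to 141 in wild-type cells. Ccne2 exons overlap Ints8 on the opposite strand over 17.4% of their length.

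Of the 8 replication licensing genes, 7 fell in each genotype and Mcm6 did not pass. CDC6 and CDT1 load the MCM helicase onto origins, and their genes were the lowest of the group relative to PBS. Cdc6 had 1.20, 1.01 and 1.16 CPM in Fes-/- libraries under LPS, against 15.2, 14.7 and 17.4 CPM under PBS. It had 0.690, 0.556 and 0.891 CPM in wild-type libraries under LPS, against 25.1, 13.1 and 12.9 CPM under PBS. The LPS libraries held 55 to 88 counts each in Fes-/- and 26 to 43 in wild-type cells, and the level was 7.11% of PBS in Fes-/- and 4.18% in wild-type cells. The log2 fold was -3.81 ± 0.26 (adjusted p = 1.33e-08) in Fes-/- and -4.58 ± 0.28 (adjusted p = 4.47e-09) in wild-type cells. Cdt1 had 9.36, 10.3 and 7.21 CPM in Fes-/- libraries under LPS, against 58.3, 55.9 and 59.5 CPM under PBS. In wild-type cells its level was 6.32, 6.78 and 8.50 CPM under LPS, against 68.5, 52.1 and 58.4 CPM under PBS. No library overlapped, and the log2 fold was -2.69 ± 0.14 (adjusted p = 3.2e-10) in Fes-/- and -3.05 ± 0.15 (adjusted p = 1.07e-10) in wild-type cells.

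The 6 helicase subunit genes changed far less than the loaders. Mcm2 fell to 53.1% of the PBS mean in Fes-/- and 50.0% in wild-type cells. Mcm3 and Mcm7 had log2 folds of -0.95 and -0.97 in Fes-/- cells and of -1.10 and -0.94 in wild-type cells. Exons of Mcm7 overlap Cops6 and Ap4m1 on the opposite strand and Mir25 and Mir93 on its own strand over 12.6% of their length, and the part of these genes in its counts was not tested. Mcm4 had -0.42 in Fes-/- and -0.54 in wild-type cells, and Mcm5 had -0.51 in Fes-/- and -0.50 in wild-type cells. The Fes-/- call of Mcm4 was lost without Fes-/- PBS library 2 (adjusted p = 0.0633), Fes-/- LPS library 1 (0.0541) or Fes-/- LPS library 2 (0.054), and its wild-type fold was -0.34 (adjusted p = 0.017) without wild-type PBS library 1. The wild-type call of Mcm5 was lost without wild-type PBS library 1 (-0.30, adjusted p = 0.0649) or wild-type LPS library 2 (0.0572). Mcm6, named here after its values were seen, averaged 228 ± 9.10 CPM under LPS and 189 ± 11.7 CPM under PBS in Fes-/- cells, and 204 ± 34.2 CPM under LPS and 180.0 ± 60.4 CPM under PBS in wild-type cells (SD, n = 3). Its log2 fold was 0.26 ± 0.19 (adjusted p = 0.237) in Fes-/- and 0.18 ± 0.19 (adjusted p = 0.412) in wild-type cells with TMM scaling, and -0.67 in Fes-/- and -0.73 in wild-type cells with library totals. Without wild-type PBS library 1 it was 0.47 in wild-type cells (adjusted p = 0.00816), and without wild-type PBS library 2 it was -0.01.

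Of the 4 DNA synthesis genes, Rrm1 and Rrm2, which encode the large and small subunits of ribonucleotide reductase, fell and Pcna and Tyms did not pass. Rrm2 had 37.4, 38.3 and 47.2 CPM in Fes-/- libraries under LPS, against 121, 109 and 141 CPM under PBS. It had 48.4, 30.8 and 35.6 CPM in wild-type libraries under LPS, against 159, 102 and 123 CPM under PBS. All LPS libraries were below all PBS libraries, and the log2 fold was -1.59 ± 0.19 (adjusted p = 7.81e-06) in Fes-/- and -1.74 ± 0.19 (adjusted p = 3.62e-06) in wild-type cells. Rrm1 had 224, 227 and 212 CPM in Fes-/- libraries under LPS, against 304, 283 and 305 CPM under PBS. Its wild-type level was 223, 212 and 235 CPM under LPS, against 326, 261 and 316 CPM under PBS. Each LPS library was lower, at 74.3% of the PBS mean in Fes-/- and 74.2% in wild-type cells, with a log2 fold of -0.43 ± 0.09 (adjusted p = 0.000386) in Fes-/- and -0.43 ± 0.09 (adjusted p = 0.000374) in wild-type cells. Pcna, the sliding clamp of the polymerases, had a log2 fold of 0.19 ± 0.17 in Fes-/- and 0.13 ± 0.17 in wild-type cells (adjusted p = 0.343 and 0.514), which became -0.75 and -0.78 with library totals. Without wild-type PBS library 1 the wild-type fold of Pcna was 0.36 (adjusted p = 0.0367). Tyms, encoding thymidylate synthase, had a log2 fold of 0.01 ± 0.13 in Fes-/- and -0.08 ± 0.13 in wild-type cells (adjusted p = 0.926 and 0.575), and -0.92 and -0.99 with library totals.

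All 6 mitotic entry genes fell in both genotypes. Aurka, a kinase of centrosome maturation, had 23.3, 23.6 and 20.0 CPM in Fes-/- libraries under LPS, against 72.3, 81.0 and 67.2 CPM under PBS. It had 15.0, 21.1 and 22.7 CPM in wild-type libraries under LPS, against 56.4, 56.8 and 76.8 CPM under PBS. The treatments did not overlap, and the log2 fold was -1.72 ± 0.16 (adjusted p = 2.53e-07) in Fes-/- and -1.69 ± 0.16 (adjusted p = 3.2e-07) in wild-type cells. Ccna2 encodes cyclin A2, which acts in S phase and at mitotic entry. It had 121, 123 and 108 CPM in Fes-/- libraries under LPS, against 287, 314 and 279 CPM under PBS. Wild-type libraries gave 91.0, 86.7 and 117 CPM of Ccna2 under LPS, against 234, 232 and 296 CPM under PBS. The groups again stood apart, with a log2 fold of -1.32 ± 0.12 (adjusted p = 1.04e-07) in Fes-/- and -1.37 ± 0.12 (adjusted p = 7.09e-08) in wild-type cells. Plk1, a kinase that drives entry and exit, fell (-1.32 in Fes-/- and -1.22 in wild-type cells). Ccna2 exons overlap Exosc9 on the opposite strand over 12.5% of their length.

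Cdk1 and the cyclin B genes, whose products form the mitosis-promoting kinase, fell less. Cdk1 fell (-0.32 in Fes-/- and -0.40 in wild-type cells), as did Ccnb1 (-0.55 in Fes-/- and -0.50 in wild-type cells) and Ccnb2 (-0.64 in Fes-/- and -0.68 in wild-type cells). In Fes-/- cells the call of Cdk1 was lost without PBS library 1, PBS library 2 or LPS library 3 (adjusted p = 0.0602, 0.0552 and 0.103). That of Ccnb2 was lost without the same 3 libraries (adjusted p = 0.0525, 0.086 and 0.0924). That of Ccnb1 was lost without PBS library 1 or 2 or LPS library 1 or 3 (adjusted p = 0.0819, 0.12, 0.0515 and 0.114). In wild-type cells the calls of Ccnb1 and Ccnb2 were lost without wild-type PBS library 3 (adjusted p = 0.235 and 0.0871, with a Ccnb1 fold of -0.27), LPS library 1 (0.161 and 0.0596) or LPS library 2 (0.107 and 0.0519). The wild-type call of Ccnb1 was also lost without Fes-/- PBS library 1 or 2 or Fes-/- LPS library 1, which enter through the shared dispersion (adjusted p = 0.0656, 0.0558 and 0.0564), and with DESeq2's size factors in edgeR (0.0691). In the fit without a block, the Fes-/- calls of Cdk1, Ccnb1 and Ccnb2 and the wild-type calls of Ccnb1 and Ccnb2 thus depended on single libraries. The wild-type call of Cdk1 was kept without each library in turn. With libraries of the same number blocked within genotype, the calls of Cdk1, Ccnb1 and Ccnb2 were kept in both genotypes. A replicate block not set within genotype lost the wild-type call of Ccnb1 (adjusted p = 0.0624). The labels do not tie library numbers to mice.

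In the kinetochore and spindle checkpoint group 6 of 7 genes fell in both genotypes, and Cenpe rose with TMM scaling but not with library totals. Bub1b, which encodes the checkpoint kinase BUBR1, had 28.0, 31.2 and 26.1 CPM in Fes-/- libraries under LPS, against 184, 173 and 169 CPM under PBS. It had 23.0, 24.2 and 29.4 CPM in wild-type libraries under LPS, against 153, 153 and 175 CPM under PBS. The LPS libraries lay within a narrow band far below PBS, at 16.2% of the PBS mean in Fes-/- and 15.9% in wild-type cells, and the log2 fold was -2.62 ± 0.10 (adjusted p = 8.47e-12) in Fes-/- and -2.65 ± 0.10 (adjusted p = 8.04e-12) in wild-type cells. Aurkb, the kinase of the chromosomal passenger complex, had 42.3, 43.5 and 36.3 CPM in Fes-/- libraries under LPS, against 119, 115 and 116 CPM under PBS. Its level in wild-type libraries was 30.9, 33.6 and 40.2 CPM under LPS, against 102, 102 and 124 CPM under PBS. No LPS library reached a PBS library, and the log2 fold was -1.52 ± 0.11 (adjusted p = 5.42e-09) in Fes-/- and -1.64 ± 0.11 (adjusted p = 2.39e-09) in wild-type cells. Birc5, encoding survivin of the same complex, fell (-1.17 in Fes-/- and -1.19 in wild-type cells). Cenpa, the centromeric histone, fell (-1.56 in Fes-/- and -1.61 in wild-type cells).

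Cenpe and Cenpf, singled out after their values were seen, both act at the outer kinetochore and differed in direction. Cenpe, a kinesin that moves chromosomes to the spindle equator, had 356, 392 and 280.5 CPM in Fes-/- libraries under LPS, against 217, 237 and 172 CPM under PBS. It had 225, 282 and 336 CPM in wild-type libraries under LPS, against 164, 172 and 192 CPM under PBS. With TMM scaling every LPS library was above every PBS library of its genotype and the log2 fold was 0.72 ± 0.16 (adjusted p = 0.00113) in Fes-/- and 0.67 ± 0.16 (adjusted p = 0.00182) in wild-type cells, and with library totals it was -0.22 in Fes-/- and -0.24 in wild-type cells and did not pass (adjusted p = 0.216 and 0.174). Cenpf fell to 16.3% of the PBS mean in Fes-/- and 16.9% in wild-type cells, a log2 fold of -2.62 ± 0.17 in Fes-/- and -2.56 ± 0.17 in wild-type cells. Bub1, the kinase that recruits other checkpoint proteins, had 60.8, 67.9 and 59.1 CPM in Fes-/- libraries under LPS, against 105, 102 and 88.6 CPM under PBS. It had 46.0, 48.0 and 59.3 CPM in wild-type libraries under LPS, against 88.0, 74.1 and 96.3 CPM under PBS. Bub1 fell less than Bub1b, with a log2 fold of -0.66 ± 0.11 (adjusted p = 0.000101) in Fes-/- and -0.75 ± 0.11 (adjusted p = 2.72e-05) in wild-type cells.

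Of the 2 genes of the anaphase-promoting complex, Cdc20 fell and Ube2c did not pass the test. Cdc20, its mitotic activator, had 24.6, 29.9 and 21.9 CPM in Fes-/- libraries under LPS, against 96.6, 113 and 86.5 CPM under PBS. It had 14.0, 20.4 and 25.8 CPM in wild-type libraries under LPS, against 62.1, 73.7 and 104 CPM under PBS. Each LPS library was below each PBS library, at 25.8% of the PBS mean in Fes-/- and 25.2% in wild-type cells, with a log2 fold of -1.95 ± 0.24 (adjusted p = 1.49e-05) in Fes-/- and -1.99 ± 0.24 (adjusted p = 1.36e-05) in wild-type cells. Ube2c encodes the ubiquitin-conjugating enzyme of the complex. It had 115, 134 and 88.3 CPM in Fes-/- libraries under LPS, against 132, 153 and 118 CPM under PBS. It had 67.3, 82.5 and 119.8 CPM in wild-type libraries under LPS, against 89.3, 101 and 147 CPM under PBS. The treatments overlapped, and the log2 fold was -0.26 ± 0.24 (adjusted p = 0.356) in Fes-/- and -0.32 ± 0.24 (adjusted p = 0.252) in wild-type cells, with 95% intervals of -0.79 to 0.28 in Fes-/- and -0.86 to 0.21 in wild-type cells. Without wild-type LPS library 3 the wild-type fold was -0.59 (adjusted p = 0.0393). With libraries of the same number blocked within genotype, edgeR called Ube2c lower in Fes-/- (-0.27, adjusted p = 0.00293) and wild-type cells (-0.33, adjusted p = 0.000687). Ube2c exons overlap Tnnc2 on the opposite strand over 22.8% of their length.

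Of the 5 spindle and cytokinesis genes, 5 fell in Fes-/- and 4 in wild-type cells. Kif23, a kinesin of the central spindle, had 36.5, 37.6 and 31.9 CPM in Fes-/- libraries under LPS, against 212, 223 and 195 CPM under PBS. It had 27.1, 31.4 and 36.5 CPM in wild-type libraries under LPS, against 159, 181 and 203 CPM under PBS. All LPS libraries lay below all PBS libraries, at 16.8% of the PBS mean in Fes-/- and 17.5% in wild-type cells, and the log2 fold was -2.57 ± 0.12 (adjusted p = 4.9e-11) in Fes-/- and -2.51 ± 0.12 (adjusted p = 6.39e-11) in wild-type cells. Anln encodes anillin, a scaffold of the contractile ring, and had 71.5, 75.5 and 63.5 CPM in Fes-/- libraries under LPS, against 194, 214 and 162 CPM under PBS. It had 49.1, 53.8 and 66.6 CPM in wild-type libraries under LPS, against 154, 146 and 178 CPM under PBS. All LPS libraries were lower, and the log2 fold was -1.44 ± 0.13 (adjusted p = 1.11e-07) in Fes-/- and -1.50 ± 0.13 (adjusted p = 7.43e-08) in wild-type cells.

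Kif11, the kinesin that separates spindle poles, fell (-1.37 in Fes-/- and -1.39 in wild-type cells), and Nusap1, a spindle microtubule binder, fell (-0.51 in Fes-/- and -0.61 in wild-type cells). Tpx2, the microtubule factor that activates Aurora A, had small folds. It had 172, 168 and 161 CPM in Fes-/- libraries under LPS, against 192, 228 and 182 CPM under PBS. It had 137, 159.5 and 166 CPM in wild-type libraries under LPS, against 161, 158 and 193 CPM under PBS. The log2 fold of Tpx2 was -0.27 ± 0.10 (adjusted p = 0.0296) in Fes-/- and -0.14 ± 0.10 (adjusted p = 0.221) in wild-type cells, and the difference of the folds was -0.12 ± 0.15 (edgeR unadjusted p = 0.41, adjusted p = 1). The Fes-/- call was lost with DESeq2 (adjusted p = 0.0866), with DESeq2's size factors in edgeR (0.0776), and without Fes-/- PBS library 1 (0.0603), PBS library 2 (-0.14, 0.232), LPS library 2 (0.0616) or LPS library 3 (0.0854).

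Both proliferation markers fell. Mki67 encodes Ki-67, the chromosome surface protein found in cycling cells. It had 444, 406 and 459 CPM in Fes-/- libraries under LPS, against 1161, 1227 and 995 CPM under PBS. It had 342, 448 and 440.0 CPM in wild-type libraries under LPS, against 905, 1057 and 1020.0 CPM under PBS. No library overlapped, and the log2 fold was -1.37 ± 0.12 (adjusted p = 4.78e-08) in Fes-/- and -1.28 ± 0.12 (adjusted p = 1.03e-07) in wild-type cells. Top2a, the topoisomerase that untangles replicated chromosomes, had 494, 521 and 472 CPM in Fes-/- libraries under LPS, against 777, 722 and 693 CPM under PBS. It had 388, 402 and 475 CPM in wild-type libraries under LPS, against 661, 636 and 727 CPM under PBS. Its fall was smaller than that of Mki67 and again without overlap, with a log2 fold of -0.56 ± 0.09 (adjusted p = 6.52e-05) in Fes-/- and -0.68 ± 0.09 (adjusted p = 9.51e-06) in wild-type cells.

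**Figure D3:**
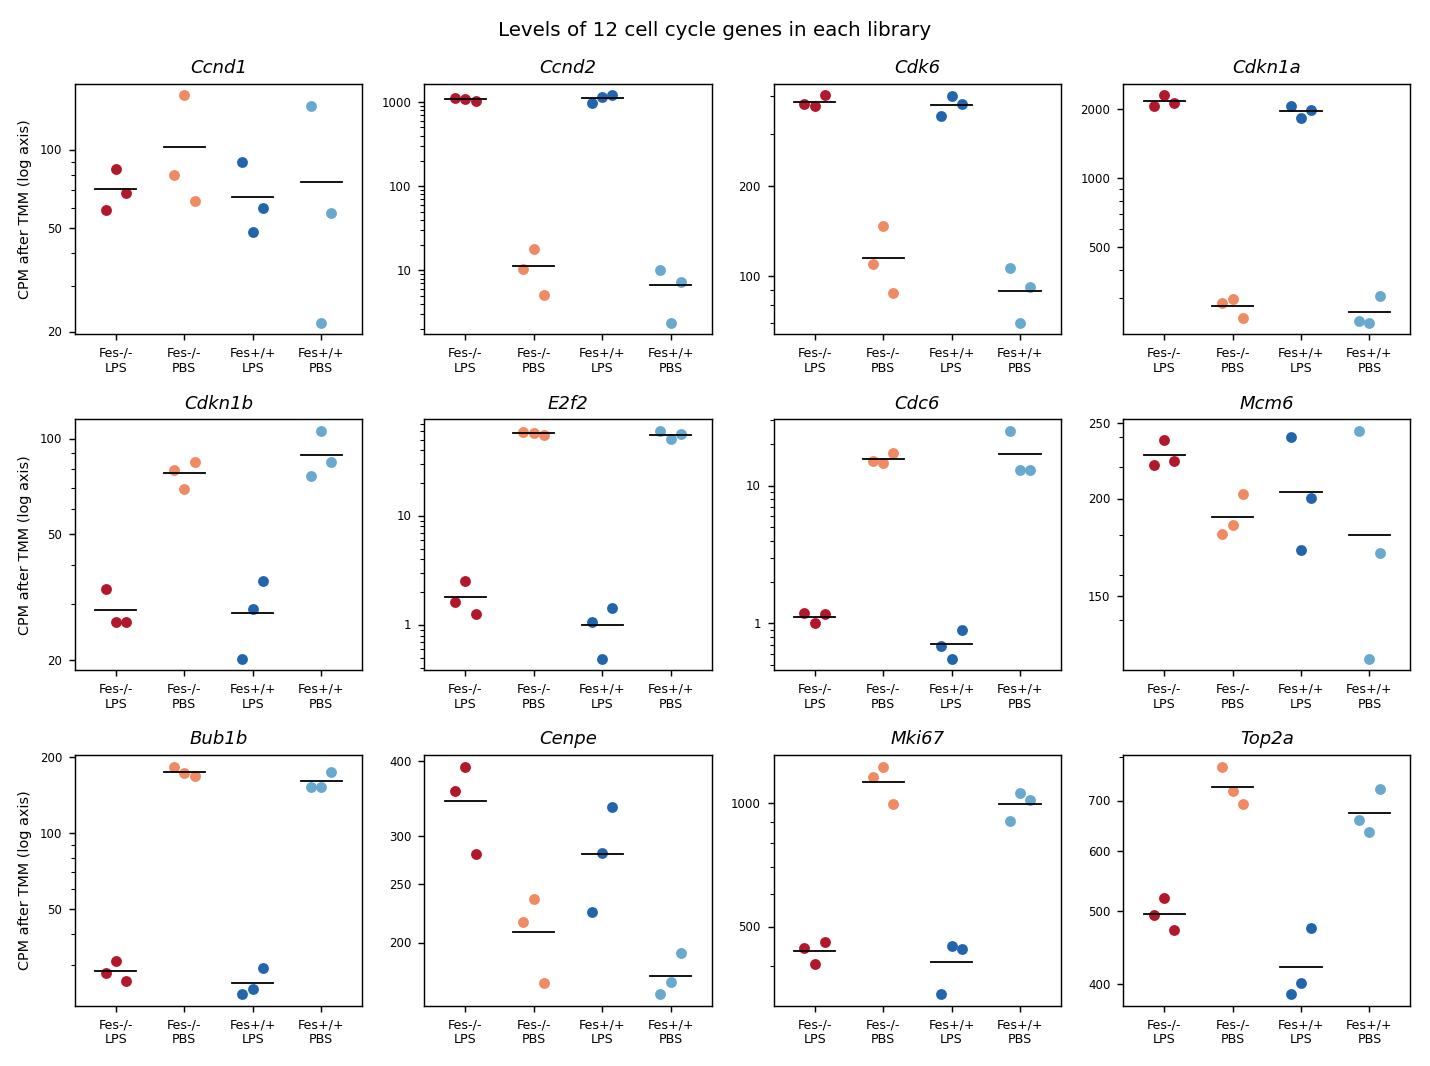
CPM after TMM scaling (log axis) of 12 of the genes in each library (points) with the group mean (bar), for Fes-/- LPS, Fes-/- PBS, wild-type (Fes+/+) LPS and wild-type PBS. Ccnd2, Cdk6 and Cdkn1a lie higher under LPS, most others lie lower, Ccnd1 spreads from 21.7 to 147 CPM in wild-type PBS libraries, and the small upward steps of Cenpe and Mcm6 turn downward when libraries are scaled by their totals.

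The folds ran from -5.79 to 7.39 in wild-type and from -4.98 to 6.59 in Fes-/- cells, and wide contrasts lay within families that share a task. The fitted falls of Cdc6 and Cdt1 were larger than those of the MCM subunits, that of E2f2 larger than that of E2f1, and likewise for Ccne2 against Ccne1, Bub1b against Bub1 and Rrm2 against Rrm1, without a test between genes. By role, the median log2 fold was -1.93 in Fes-/- and -2.13 in wild-type cells for the E2F and cyclin E genes, and -0.21 in Fes-/- and -0.26 in wild-type cells for the DNA synthesis genes. The median was -0.98 in Fes-/- and -0.95 in wild-type cells for mitotic entry, and -1.52 in Fes-/- and -1.61 in wild-type cells for the kinetochore genes.

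A list of 104 other cell cycle genes, all of which were tested, also held more falls than rises. In Fes-/- macrophages 70 fell and 15 rose with a median log2 fold of -0.79, and in wild-type macrophages 69 fell and 15 rose with a median of -0.75, against the shares of all genes given above. The largest falls called in wild-type cells were those of Ccnf (-4.61 ± 0.20 in Fes-/- and -4.34 ± 0.20 in wild-type cells), Cdc7 (-3.74 ± 0.21 and -3.84 ± 0.21), Clspn (-3.54 ± 0.12 and -3.61 ± 0.12) and E2f7 (-3.48 ± 0.12 and -3.54 ± 0.12). CDC7 fires licensed origins, claspin serves the replication checkpoint, cyclin F is a ubiquitin ligase subunit, and E2F7 is a repressing E2F factor. The largest rises were those of Gadd45b (4.97 ± 0.16 and 4.51 ± 0.16) and Gadd45g (3.85 ± 0.20 and 4.48 ± 0.21), which are stress-induced growth arrest genes, of Pttg1 (2.47 ± 0.11 and 2.47 ± 0.11), which encodes securin, and of Mdm2 (1.87 ± 0.13 and 2.18 ± 0.13), the ubiquitin ligase of p53.

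Sums of several marker lists of other cell types differed between LPS and PBS, at levels far below the macrophage list. These sums, like the macrophage sums, are in TPM. In log2(TPM + 0.1) the median fold of all genes tested was -0.99 in Fes-/- and -0.95 in wild-type cells. A lower sum under LPS therefore does not by itself show that a list fell relative to other genes. The 7 B cell markers summed to 2.55 to 3.33 TPM in Fes-/- libraries under LPS and 21.2 to 22.2 TPM under PBS, and to 3.94 to 4.60 TPM in wild-type libraries under LPS and 19.9 to 25.9 TPM under PBS, with Cd79b alone above 1 TPM. The 8 neutrophil markers summed to 16.9 to 22.7 TPM in Fes-/- libraries under LPS and 30.9 to 37.5 TPM under PBS, and to 20.3 to 30.7 TPM in wild-type libraries under LPS and 40.6 to 52.6 TPM under PBS, with Ly6g or Retnlg at 0 in every group. The 6 stromal markers summed to 5.49 to 6.69 TPM in Fes-/- libraries under LPS and 0.437 to 0.748 TPM under PBS, and to 3.36 to 5.69 TPM in wild-type libraries under LPS and 0.313 to 0.773 TPM under PBS. Most of the stromal sum under LPS was Pdgfrb, a growth factor receptor gene, with 5.16, 6.17 and 5.55 TPM in Fes-/- libraries under LPS and 0.240, 0.174 and 0.197 TPM under PBS, and 5.39, 2.98 and 5.05 TPM in wild-type libraries under LPS and 0.164, 0.314 and 0.208 TPM under PBS. The other 5 stromal markers, collagens, Cxcl12 and Dcn, were each below 1 TPM in every library. The 6 dendritic cell markers summed to at most 3.82 TPM, and the T and NK cell, mast cell and erythroid lists to at most 0.470 TPM in any library. Their part in the results was not tested.

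Between genotypes no member passed the test. Under LPS 0 of 47 genes were called in Fes-/- against wild-type macrophages by edgeR and 0 by DESeq2, and 0.108% of all genes tested were called. An unadjusted p under 0.05 was found for 6 members and for 6.52% of all genes. The smallest adjusted p was 0.719, and 43 of the 47 genes had a 95% interval within 2-fold. Under PBS 0 of 47 genes were called by edgeR and 0 by DESeq2, and 0.0823% of all genes were called. An unadjusted p under 0.05 was found for 1 member and for 3.83% of all genes. Here the smallest adjusted p was 0.975, and 45 of 47 intervals lay within 2-fold. Without the filter on low counts, edgeR called 5 members higher in Fes-/- cells under LPS (E2f2, Cdc6, Cdc20, Ube2c and Anln) and 3 under PBS (Ccnd1, Ccnd2 and Cdk6). The Ccnd1 call came with a standard error of 0.098. Its PBS libraries spanned 63.7 to 162 CPM in Fes-/- and 21.7 to 147 CPM in wild-type cells. The standard error of its LPS fold in Fes-/- cells was 0.61 with the filter and 0.098 without it. For Ccnd1 the unfiltered p-value thus did not reflect the spread between libraries. The other genotype calls also came with smaller standard errors than with the filter. Under LPS these were 0.098 against 0.24 for Ube2c, 0.10 against 0.24 for Cdc20 and 0.099 against 0.13 for Anln. They were 0.16 against 0.31 for E2f2 and 0.20 against 0.32 for Cdc6. Under PBS they were 0.10 against 0.17 for Cdk6 and 0.11 against 0.52 for Ccnd2.

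Under LPS E2f2 had the smallest p. It had 1.62, 2.53 and 1.27 CPM in Fes-/- libraries, against 1.07, 0.492 and 1.43 CPM in wild-type libraries. The groups overlapped, since Fes-/- library 3 lay below wild-type library 3, and the log2 difference was 0.86 ± 0.31 with a 95% interval of 0.19 to 1.53 (edgeR unadjusted p = 0.0163, adjusted p = 0.719). Bub1 had 60.8, 67.9 and 59.1 CPM in Fes-/- libraries, against 46.0, 48.0 and 59.3 CPM in wild-type libraries, a log2 difference of 0.29 ± 0.11 (unadjusted p = 0.0223, adjusted p = 0.719). Top2a had 494, 521 and 472 CPM in Fes-/- libraries, against 388, 402 and 475 CPM in wild-type libraries, a log2 difference of 0.23 ± 0.09 (unadjusted p = 0.0242, adjusted p = 0.721). In both genes the wild-type libraries spread more widely and reached the Fes-/- range. Cdc6 was the 1 member with every Fes-/- library above every wild-type library under LPS, and no member lay wholly below, where 5.78% of all genes lay wholly above and 5.63% wholly below. Its log2 difference was 0.65 ± 0.32 (unadjusted p = 0.0614, adjusted p = 0.78).

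Under PBS Tpx2 had the smallest p. It had 192, 228 and 182 CPM in Fes-/- libraries, against 161, 158 and 193 CPM in wild-type libraries. The ranges met, and the log2 difference was 0.23 ± 0.10 with a 95% interval of 0.01 to 0.46 (edgeR unadjusted p = 0.0387, adjusted p = 0.975). Cdk6 had 110.3, 147 and 87.7 CPM in Fes-/- libraries, against 107, 70.0 and 92.3 CPM in wild-type libraries, a log2 difference of 0.36 ± 0.17 (unadjusted p = 0.0593, adjusted p = 0.975). Anln had 194, 214 and 162 CPM in Fes-/- libraries, against 154, 146 and 178 CPM in wild-type libraries, a log2 difference of 0.25 ± 0.12 (unadjusted p = 0.0618, adjusted p = 0.975). No member separated the genotypes without overlap under PBS, where 3.03% of all genes lay wholly above and 3.8% wholly below wild type.

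The folds of the set leaned to one side in both treatments. Under LPS 45 of 47 log2 differences were above 0, against 49.6% of all genes, with a median of 0.16 against -0.0008 over all genes. Under PBS 41 of 47 were above 0, against 49.6% of all genes, with a median of 0.11 against 0.00. The 104 other cell cycle genes leaned the same way. Of these, 83 were above 0 under LPS (median 0.13) and 88 under PBS (median 0.11). The 47 genes vary together from library to library, so their signs are not independent of each other, and their medians moved with single libraries. The LPS median was 0.12 without wild-type LPS library 2 and 0.24 without wild-type LPS library 3. The PBS median was 0.02 without wild-type PBS library 2 and 0.19 without wild-type PBS library 3.

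The summed markers of haematopoietic progenitors reached higher levels in Fes-/- libraries, with overlapping ranges, mainly through Cd34. The 10 markers summed to 2.38 to 7.05 TPM in Fes-/- libraries, against 1.68 to 3.23 TPM in wild-type libraries under LPS, and to 5.02 to 14.4 TPM in Fes-/- libraries, against 4.12 to 5.88 TPM in wild-type libraries under PBS. At least 8 of the 10 were below 1 TPM in each group. Cd34, the most abundant of them in Fes-/- libraries, had 6.62, 11.5 and 2.67 TPM in Fes-/- libraries under PBS, against 1.92, 1.16 and 3.47 TPM in wild-type libraries. In Fes-/- library 2 it gave 11.5 of 14.4 TPM under PBS and 5.68 of 7.05 TPM under LPS. Mpo went the other way under PBS, with 0.250, 0.424 and 0.504 TPM in Fes-/- libraries, against 0.617, 1.21 and 0.619 TPM in wild-type libraries. The part of these markers in the lean of the cell cycle genes was not tested. Fes lies on chromosome 7, as do 5 of the 47 genes (Ccnd1, Ccne1, Mki67, Plk1 and Rrm1), none of which was called between genotypes.

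**Figure D4:**
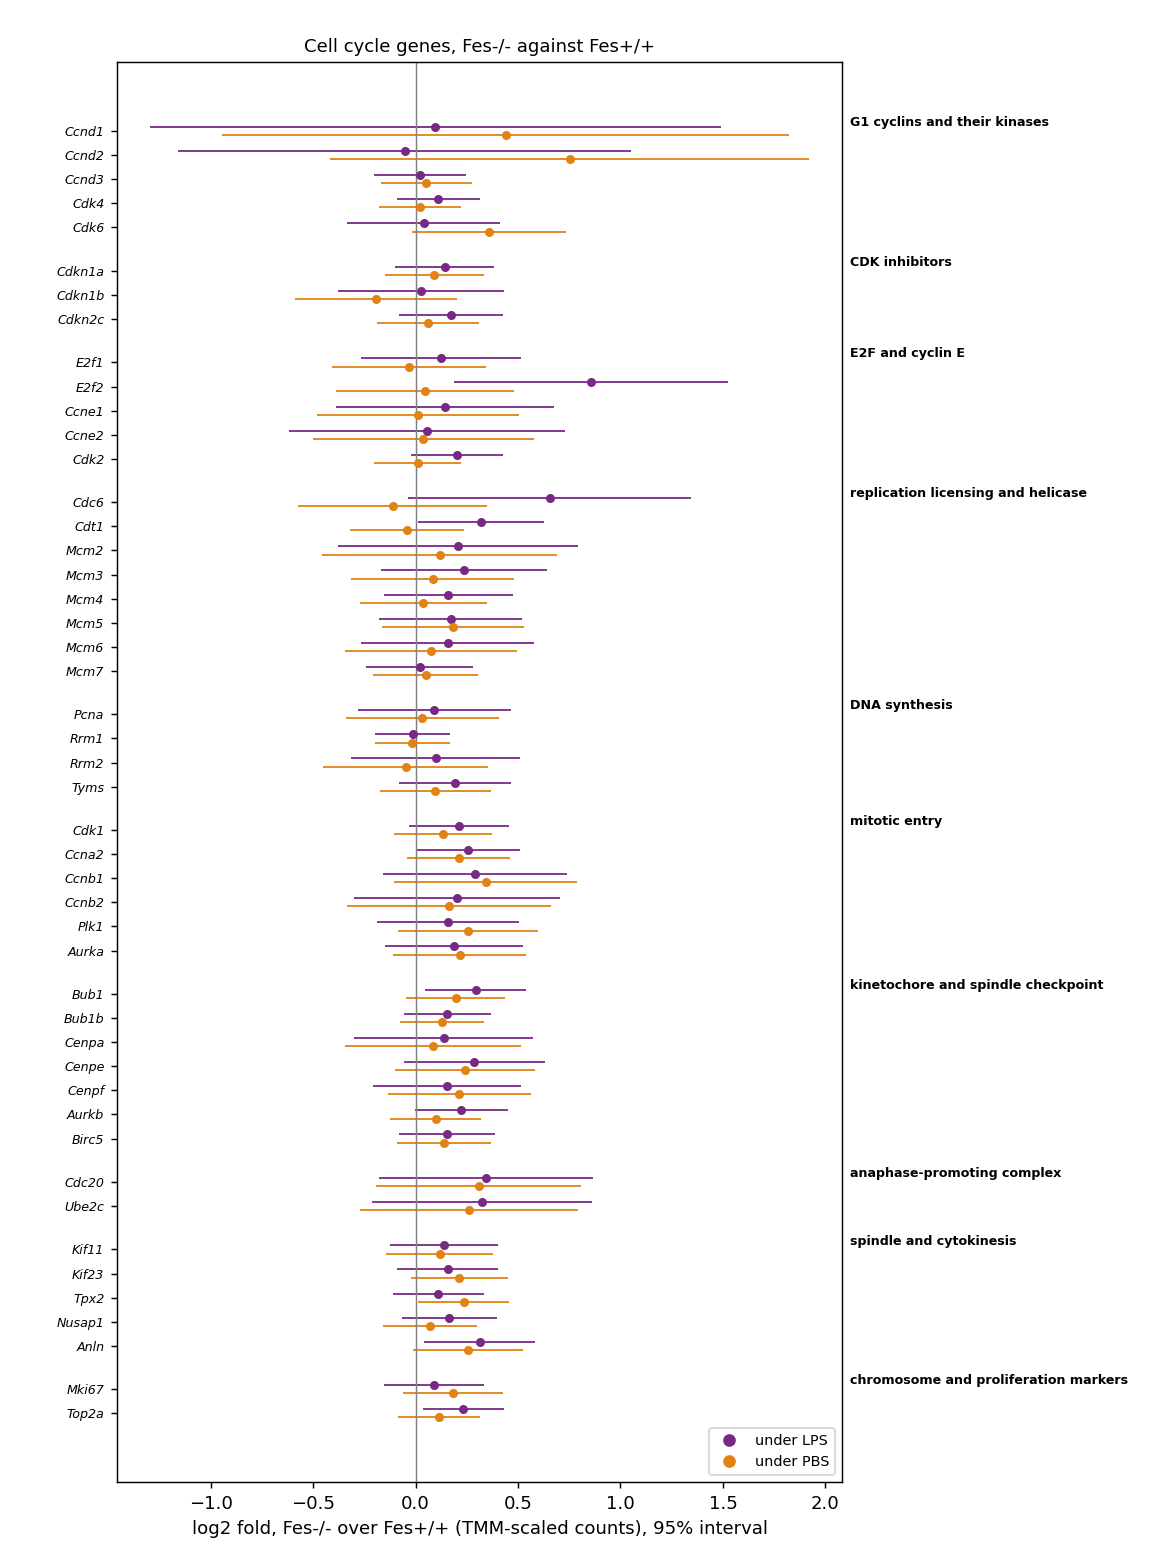
Log2 difference of Fes-/- over wild type (Fes+/+) for the 47 genes, under LPS (purple) and under PBS (orange). Points are fitted differences of TMM-scaled counts and bars their 95% intervals. No gene passed the test, and 45 points under LPS and 41 under PBS lie right of 0.

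With low counts filtered out, no member's LPS effect was called different between genotypes. Of the 47 genes 0 were called for the difference of the folds by edgeR and 0 by DESeq2, and 0.019% of all genes were called. An unadjusted p under 0.05 was found for 1 member and for 2.94% of all genes, and every member's adjusted p was 1. Without the filter on low counts edgeR called 2 members, E2f2 (0.86 ± 0.19, adjusted p = 0.00608) and Ccnd2 (-0.76 ± 0.15, adjusted p = 0.000631). The standard error of the Ccnd2 difference was 0.71 with the filter. With the filter E2f2 had the smallest p, with a difference of 0.81 ± 0.37 and a 95% interval of 0.01 to 1.61 (unadjusted p = 0.0471). Cdc6 followed with 0.77 ± 0.38 and an interval of -0.07 to 1.60 (unadjusted p = 0.0679), and Cdt1 with 0.36 ± 0.19 and an interval of -0.05 to 0.78 (unadjusted p = 0.0814). For all 3 the fitted LPS fall was smaller in Fes-/- cells, and none passed the adjusted threshold. For 43 of the 47 genes the interval of the difference lay within 2-fold in either direction.

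Of the other cell cycle genes 0 of 104 were called by edgeR and by DESeq2 under LPS, under PBS and for the difference. An edgeR unadjusted p under 0.05 was found for 12, 3 and 4 of these 104, against 6.52%, 3.83% and 2.94% of all genes. Under LPS the smallest p values were those of Gadd45a (0.46 ± 0.14, unadjusted p = 0.00423), E2f8 (0.31 ± 0.09, unadjusted p = 0.00429) and Wee1 (0.65 ± 0.19, unadjusted p = 0.00441), each with an adjusted p of 0.615. Under PBS they were those of Gadd45b (-0.38 ± 0.14), Ect2 (0.28 ± 0.12) and Ncapg (0.19 ± 0.09), at unadjusted p = 0.0177, 0.0402 and 0.0456. For the difference they were those of Gadd45a (0.77 ± 0.20), Gadd45b (0.46 ± 0.20) and Gadd45g (-0.63 ± 0.27), at unadjusted p = 0.00163, 0.0333 and 0.0378 and an adjusted p of 1. The 3 Gadd45 genes encode small stress proteins that bind CDK1 and p21.

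The members varied between libraries of 1 group in a pattern that split replication from mitosis. The median ratio of highest to lowest library was 1.18 in Fes-/- LPS, 1.19 in Fes-/- PBS, 1.37 in wild-type LPS and 1.36 in wild-type PBS libraries. The gene with the widest ratio was E2f2 (1.99) in Fes-/- LPS, Ccnd2 (3.60) in Fes-/- PBS, E2f2 (2.91) in wild-type LPS and Ccnd1 (6.78) in wild-type PBS libraries. By this ratio the wild-type libraries differed more among themselves than the Fes-/- libraries, and this spread enters each genotype comparison.

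To describe the pattern, the 12 licensing and DNA synthesis genes and the 20 genes of mitotic entry, kinetochore, anaphase-promoting complex and spindle were averaged per library as log2 CPM, a grouping chosen after the values were seen. The replication mean minus the mitosis mean was -0.49, -0.55 and -0.26 in Fes-/- LPS libraries 1, 2 and 3, and -0.69, -0.79 and -0.42 in Fes-/- PBS libraries. It was 0.04, -0.65 and -0.63 in wild-type LPS libraries and 0.01, -0.75 and -0.76 in wild-type PBS libraries. Library 1 of wild type and library 3 of Fes-/- therefore had the highest replication share of their groups under both treatments.

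The single genes followed the means. Wild-type PBS library 1 was the highest of its group for 12 of 12 replication genes and the lowest for 13 of 20 mitosis genes. Wild-type PBS library 3 was the highest for 20 of 20 mitosis genes, and library 2 the lowest for 11 of 12 replication genes. Under LPS the same library numbers stood out in wild type. LPS library 1 was the highest for 8 of 12 replication genes and the lowest for 18 of 20 mitosis genes, library 3 the highest for 20 of 20 mitosis genes, and library 2 the lowest for 11 of 12 replication genes. In Fes-/- cells library 3 was the lowest for 20 of 20 mitosis genes under LPS and for 16 of 20 under PBS, and under PBS it was the highest for 9 of 12 replication genes.

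**Figure D5:**
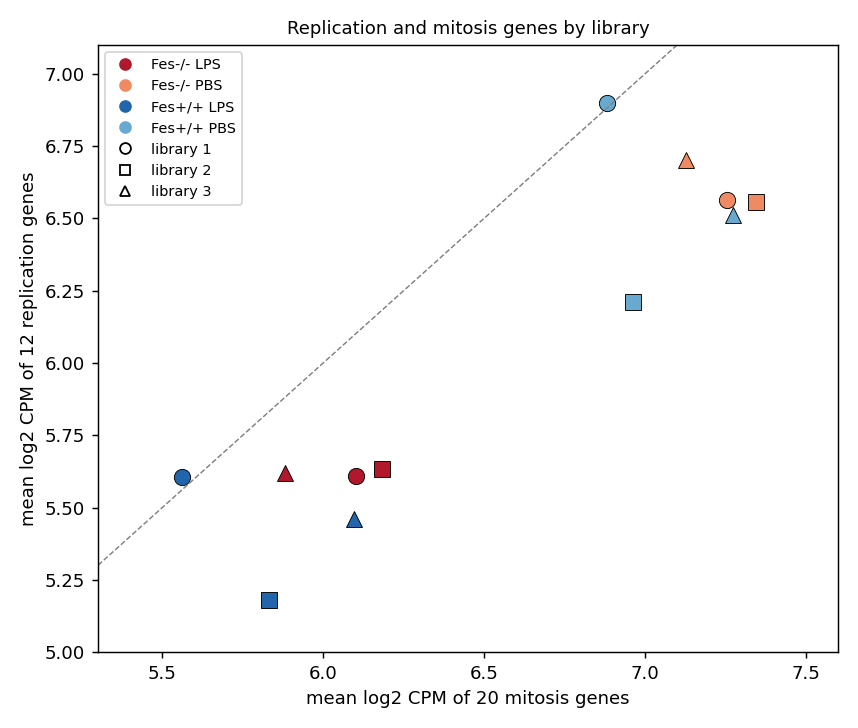
Mean log2 CPM of 12 replication genes (vertical axis) against that of 20 mitosis genes (horizontal axis) in each of the 12 libraries. The marker shape gives the library number, and a dashed line marks where both are equal. LPS libraries lie lower on both axes than PBS libraries, and library 1 of wild type lies at the line under both treatments (0.04 under LPS and 0.01 under PBS) while the others lie below it.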

How the data were processed

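The authors deposited whole-number counts per gene and TPM values for 12 poly-A RNA libraries. Per the submitters' processing notes, the tools named are STAR (2.7.8a) and Picard (2.9.0), with R (4.1.12) and also DESeq2 (1.34.0), without a step given for each. The builds GRCm38 and mm9 are listed there with no role. The counting program, its annotation and its use of strand are not given in the sources used here. The deposited counts were tested with edgeR 4.0.16 in R 4.3.3, using filterByExpr, TMM factors, 1 mean per group over all 12 libraries (8 residual degrees of freedom), the robust quasi-likelihood F test and Benjamini-Hochberg adjustment over 15801 genes. The deposited TPM values were used for shares, marker sums and a limma 3.58.1 alternative. DESeq2 1.42.0, other scalings, other filters, a replicate block and leaving out each library were the alternatives. No pair of libraries agreed within sampling noise (chi-square per degree of freedom 19.6 to 77.3), and the fit was tested on simulated counts.

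Depth was 61016254 to 101027166 counts per library, so that precision is limited mainly by 3 libraries a group, except for E2f2, Cdc6 and Ccne2 under LPS. The labels name 3 biological replicates a group, and p-values of the main fit rest on the spread between libraries, with no block for library number. Spread common to LPS and PBS libraries of 1 number thus enters the error of the LPS folds. Gene models of GENCODE M21 matched the deposited lengths within 1% for 98.5% of 7054 genes compared and gave the exon overlaps. Of the near-identical copies of members, Ccnb1-ps, Pcna-ps2 and Gm5487, a copy of Mcm7, had 0.324%, 0.64% and 0.393% of the counts of their member. Tyms shared 355, 357 and 358 aligned bases with Reep3, Map3k2 and Wdr59, at 97.7%, 95.5% and 96.4% identity. These 3 genes had 300%, 107% and 104% of the Tyms counts, and their part in the Tyms counts was not tested. Promoter sequences are RefSeq's on GRCm38.p6. The genes given in every library were, in each of 10 roles, the 2 with the smallest p for LPS in wild type, and the 3 with the smallest p in each genotype comparison and in the difference. The members, lists and roles were chosen with earlier results of these data known. Of the 104 other cell cycle genes, those named had the 4 largest rises and falls for LPS in wild type or the 3 smallest p in each genotype comparison. Marker lists are described by sums, with no test.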

Additional observations from a re-analysis of the deposited data

How the results depend on the processing

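For the LPS effect of the 47 genes, 988 of the recomputed Fes-/- folds and 987 of the wild-type folds kept their direction and their side of the threshold, 12 and 17 newly passed, 19 and 13 no longer passed, and 15 and 17 changed sign. Leaving out 1 library at a time, 4 genes rose and 33 to 38 fell in Fes-/- cells, 4 to 6 rose and 34 to 38 fell in wild-type cells, and 0 were called between genotypes or for the difference. Without the filter on low counts genotype calls by edgeR appeared. They were 5 higher under LPS (E2f2, Cdc6, Cdc20, Ube2c and Anln) and 3 higher under PBS (Ccnd1, Ccnd2 and Cdk6). For the difference 1 was higher (E2f2, 0.86 ± 0.19, adjusted p = 0.00608) and 1 lower (Ccnd2, -0.76 ± 0.15, adjusted p = 0.000631). With the filter the standard error was 0.71 for the Ccnd2 difference and 0.37 for the E2f2 difference. The unfiltered genotype calls under LPS and PBS likewise came with smaller standard errors than with the filter. Why the standard errors were smaller without the filter was not tested.

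Changes of sign in Fes-/- cells, given for library totals, log2(TPM + 1) and log2(TPM + 0.1), were those of Mcm6 (-0.67, -0.71 and -0.71), Pcna (-0.75, -0.78 and -0.79), Tyms (-0.92, -0.92 and -0.96) and Cenpe (-0.22, -0.26 and -0.26). In wild-type cells they were those of Mcm6 (-0.73, -0.71 and -0.72), Pcna (-0.78, -0.79 and -0.79) and Cenpe (-0.24, -0.28 and -0.28). In Fes-/- cells Tyms was also -0.028 without the filter, and leaving out 1 library at a time it ran from -0.056 (LPS library 2) to 0.086 (PBS library 3). In wild-type cells Ccnd1 was 0.15 with a replicate block within genotype. Leaving out 1 library at a time, the wild-type folds ran from -0.62 (PBS library 2) to 0.74 (PBS library 1) for Ccnd1, from -0.0090 (PBS library 2) to 0.47 (PBS library 1) for Mcm6, from -0.036 (PBS library 2) to 0.36 (PBS library 1) for Pcna and from -0.21 (PBS library 2) to 0.0047 (PBS library 3) for Tyms. The cause was not tested. With library totals the members' median was -1.90 in Fes-/- and -2.01 in wild-type cells.

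Libraries of LPS and PBS with the same number deviated together weakly, with correlations of 0.07, 0.09 and 0.19 in Fes-/- and 0.14, 0.17 and 0.14 in wild-type cells, so that the numbers were not taken as pairs. With the replicate block 38 genes fell and 4 rose in Fes-/- cells, 36 fell and 4 rose in wild-type cells, and 0 were called between genotypes or for the difference. With a replicate block within genotype 39 fell and 6 rose in Fes-/- cells, 38 fell and 5 rose in wild-type cells, and 0 were called for the difference. The wild-type call of Ccnb1 was lost with the replicate block (-0.50, adjusted p = 0.0624). With the block within genotype Ube2c was called lower in Fes-/- (-0.27, adjusted p = 0.00293) and wild-type cells (-0.33, adjusted p = 0.000687), and Mcm6 in both (0.26 and 0.22, adjusted p = 0.0144 and 0.035) and Pcna in Fes-/- cells (0.19, adjusted p = 0.0466) were called higher, all with TMM scaling, Mcm6 and Pcna having the opposite sign with library totals. Within each genotype every library correlated best with its own number across treatments. The series design names 3 mice per genotype and each group holds 3 libraries, so LPS and PBS libraries may share mice. The labels do not tie library numbers to mice, and the main fit treats all 12 libraries as independent. Depth limits E2f2, Cdc6 and Ccne2 under LPS, which had 23 to 143, 26 to 88 and 91 to 164 counts per library. Bulk RNA cannot place a change in a cell cycle phase.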
